A study of Mus musculus with 10 samples.

Results

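The lungs of all 7 mice exposed to ovalbumin (OVA), an egg white protein used to induce allergic asthma, were compared with the lungs of the 3 saline mice of the same study, so that all 10 mice of the series took part. The exposed mice were the 3 labelled OVA and the 4 labelled Herb, the herbal treatment group, which carried the same allergen. DNA methylation of lung tissue was measured by Methyl-seq, in which probes capture chosen regions and bisulfite treatment tells methylated from unmethylated CpGs. Of the 446336 windows of 1000 bp, set every 500 bp, 421759 had at least 20 CpG calls in each of the 10 mice and were tested with the mouse as the unit. Methylation of a window is the percent of its calls that were methylated, and differences are in percentage points.

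All mice were female BALB/c, bought at 8 weeks of age. The saline group received saline only. The OVA group was sensitized by intraperitoneal OVA (50 µg) with alum on a pair of occasions 7 days apart, and then challenged intranasally with OVA (25 µg) over 4 days. The Herb group received the same sensitization and challenge, and an ethanol extract of Descurainia sophia seeds by mouth for 7 days. OVA given without alum, alum without OVA and the extract without OVA were not among these groups, so the common response is to the whole procedure. Lung is a mixture of cells. In such tissue a change in the share of a cell type and a change of methylation within its cells cannot be told apart.

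Allergic airway inflammation is driven by type 2 helper T (Th2) cells, whose cytokines recruit eosinophils, raise IgE and increase mucus. Leukocytes entering the lung bring their own methylome: genes that every white blood cell uses tend to be unmethylated in them and methylated in the epithelium, vessels and connective tissue. DNA methyltransferases write the mark, TET enzymes start its removal, and regulatory elements bound by a cell type's transcription factors are commonly low in methylation in that cell type.

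Sequences around a motif are given for 8 called windows, since these motifs were found more often in windows of one direction than of the other, although most called windows hold neither. The 4 sequences of windows that lost methylation each hold GAGGAAGT, a form of the site of PU.1, the leukocyte factor that Spi1 encodes, in capitals. They come from the windows with the largest loss among regions of at least 3 windows whose leading window held the motif outside exons and whose mice did not overlap, on the chromosomes from which sequences were taken. Coordinates are GRCm38, and a minus marks the reverse strand.
Plxnc1 (chr10:94828327-94828406, -): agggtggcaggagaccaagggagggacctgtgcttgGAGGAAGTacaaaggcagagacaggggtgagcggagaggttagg
B4galnt2 (chr11:95896620-95896699, +): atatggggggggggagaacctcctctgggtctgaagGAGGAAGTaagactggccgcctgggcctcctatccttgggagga
Ppef2 (chr5:92245041-92245120, -): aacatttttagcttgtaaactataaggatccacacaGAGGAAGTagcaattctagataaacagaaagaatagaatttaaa
Tspoap1 and Mir142 (chr11:87756611-87756690, +): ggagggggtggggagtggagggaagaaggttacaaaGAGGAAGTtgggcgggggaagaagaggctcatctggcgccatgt

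The 4 sequences of windows that gained methylation, chosen in the same way, hold TGTTTAC, a core of the sites of forkhead (FOX) factors, in capitals.
Aco1 (chr4:40157646-40157724, +): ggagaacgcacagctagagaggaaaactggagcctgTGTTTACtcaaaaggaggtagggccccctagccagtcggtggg
Prrc2b (chr2:32157488-32157566, +): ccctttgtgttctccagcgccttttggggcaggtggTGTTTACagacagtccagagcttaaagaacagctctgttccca
Stat6 (chr10:127653504-127653582, +): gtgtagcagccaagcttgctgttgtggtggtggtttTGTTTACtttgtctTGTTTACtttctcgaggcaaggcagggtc
Ppp2r5e (chr12:75537965-75538043, +): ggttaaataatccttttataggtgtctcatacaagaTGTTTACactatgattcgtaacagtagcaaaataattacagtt

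The window at Plxnc1, a semaphorin receptor gene, had 77.6% ± 3.10 (SD, n = 3) methylation in saline and 52.7% ± 5.50 (n = 7) in exposed mice. That at B4galnt2, a glycosyltransferase gene, had 70.8% ± 3.44 and 48.1% ± 5.09. The window at Ppef2, which encodes a protein phosphatase, had 74.4% ± 1.95 and 52.5% ± 6.64. All of these fell by over 20 points, with no overlap between saline and exposed mice. On the other side, the window in an intron of Aco1, the cytosolic aconitase that also acts as an iron sensor, rose from 21.6% ± 5.09 to 48.7% ± 7.10, and that in Ppp2r5e, a regulatory subunit of protein phosphatase 2A, from 33.2% ± 4.57 to 55.2% ± 6.73. The window in Prrc2b rose from 18.0% ± 2.64 to 42.2% ± 4.38.

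Groups were compared by limma on M-values, log2((methylated + 1)/(unmethylated + 1)), with Benjamini-Hochberg adjustment over all windows. To be called, a window needed an adjusted p under 0.05 together with groups that differed by 10 percentage points or more. In exposed vs. saline mice, 13389 windows were hyper methylated, which is 3.17% of the windows tested, and 8758 were hypo methylated, which is 2.08%. Hyper methylated windows thus made up 60.5% of all calls. With each mouse's M-values centred on their median the share was 53.3%, as the median M-value difference over all windows was 0.11 before and 0.0090 after centring. The typical hyper methylated window went from a median of 34.7% in saline to 48.6% in exposed mice, and the typical hypo methylated window from 68.5% to 53.6%. The median difference was 12.9 points in hyper and -13.4 in hypo methylated windows, and the extremes were 33.1 and -35.1. Just inside the threshold, 2626 hyper and 1445 hypo methylated windows differed by 10 to 11 points. Just outside it, 2744 and 1382 windows of the respective direction passed the p threshold with a difference of 9 to 10 points. Without a minimum difference, 45151 windows (10.7%) passed, of which 65.5% were higher in exposed mice. This share was 45.5% after centring, so the direction of the small differences depended on the scaling.

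In 12127 hyper methylated windows (90.6%) and 8085 hypo methylated windows (92.3%), no exposed mouse overlapped a saline mouse, against 14.2% of all windows tested. These shares describe the size of the called differences, since calling selects windows with little overlap. The number of calls rested on the 3 saline mice. Without Saline replicate 2, 6731 hyper and 5260 hypo methylated windows were called. The counts were 10029 and 5959 without Saline replicate 1, and 11437 and 8055 without Saline replicate 3.

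The spread over mice was small beside the difference. Averaged over the hyper methylated windows, the saline mice had 35.7%, 33.8% and 36.2%. The OVA mice had 46.2%, 50% and 50.6%, and the Herb mice 46.5%, 50.4%, 48.0% and 50.6%. In the hypo methylated windows the saline mice had 68.0%, 68.3% and 66.0%, the OVA mice 56.0%, 52.8% and 52.3%, and the Herb mice 54.5%, 52.5%, 54.3% and 51.2%. Since these windows were called on the same mice, the separation is a description and was not tested. OVA replicate 1 and Herb replicate 1 lay closest to saline in both sets.

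**Figure D1:**
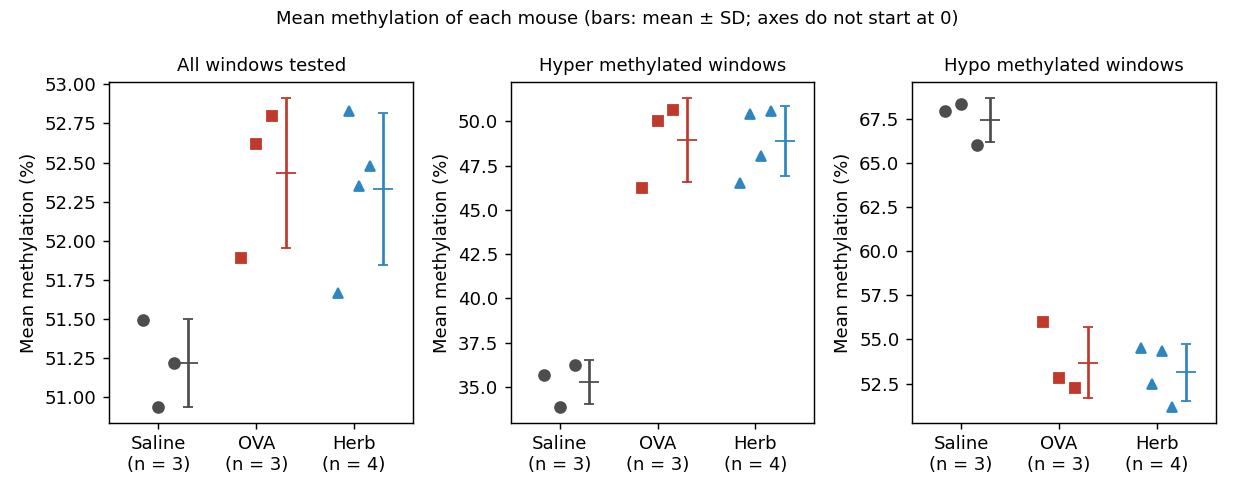
Mean methylation (%, y axis) of each mouse by group (x axis) over all windows tested, over hyper methylated and over hypo methylated windows. Points are mice and bars give the mean ± SD of the 3 saline, 3 OVA and 4 Herb mice. OVA and Herb mice lie on the same side of saline in each panel, and OVA replicate 1 and Herb replicate 1 lie nearest to it.

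Over all windows, mean methylation was 51.2% ± 0.280 (SD, n = 3) in saline and 52.4% ± 0.446 (n = 7) in exposed mice, a difference of 1.16 points (two-sided exact permutation p = 0.0167, which no arrangement of 7 and 3 mice can go below). All exposed mice, at 51.7% to 52.8%, lay above all saline mice, at 50.9% to 51.5%. With pooled calls, in which deep windows weigh more, the difference was 1.65 points (exact permutation p = 0.117), and the groups of exposed mice were unlike. The pooled percent was 36.8, 36 and 36.5 in saline, 35.5, 37.2 and 37.3 in OVA and 38.5, 39.8, 39.6 and 38.6 in Herb mice, so that OVA replicate 1 lay below and all Herb mice above every saline mouse. The first principal component of the windows, which held 32.0% of the variance, separated the saline mice from the exposed mice. The second, with 12.7%, separated Herb from OVA mice. The sequencing gave 306656737 to 410836272 calls per mouse, and a tested window had a median of 377 to 551 calls per mouse. The deepest and the shallowest mouse were Herb replicate 1 and Saline replicate 2. The part of depth in the differences was not tested.

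The called windows differed from saline in the same direction in both groups of exposed mice, as calling on their common mean favours. Both groups were compared with the same saline mice. In hyper methylated windows the median difference from saline was 13.0 points in OVA and 12.9 in Herb mice. In hypo methylated windows it was -13.2 and -13.6. In a fit of the 3 groups, Herb and OVA differed in 3887 of all windows (0.922%), and Herb was the higher in 3347 of them. The count was 1626 without OVA replicate 1, 2292 without OVA replicate 3, and 1892, 2397 and 1875 without Herb replicates 1, 2 and 3. Among windows called in exposed vs. saline by the same 3-group fit, which does not count a Herb to OVA difference as spread, 49 of 13550 hyper (0.362%) and 25 of 8759 hypo methylated windows (0.285%) differed between Herb and OVA. At an unadjusted p under 0.05 the shares were 5.30% and 5.79%, against 10.1% of all windows. Herb minus OVA lay between -6.18 and 5.65 points in the middle 90% of these hyper methylated windows, between -6.63 and 5.61 in that of the hypo methylated windows, and between -5.98 and 5.73 over all windows.

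Genes used by all white blood cells had the highest share of windows that lost methylation among the 14 gene lists examined. Of the 863 windows within 5 kb of the 29 pan-leukocyte genes with data, 142 (16.5%) were hypo methylated and 59 (6.84%) were hyper methylated, against 2.08% and 3.17% of all windows. Of the genes, 19 had only hypo methylated windows, 1 only hyper methylated ones, 7 had both and 2 had neither. The 2 with neither were Cd52 and Coro1a. Near the start site the direction was less mixed: 63 of 150 promoter windows of these genes (42.0%) were hypo methylated and 3 (2.00%) hyper methylated, against 1.14% and 1.58% of all promoter windows. A hypo methylated promoter window was found in 23 of 28 genes. Counts of genes, for this and the other lists, have no share over all genes beside them. A gene with more windows also has more occasions for a call. The median difference was -9.54 points in the promoter windows and -0.581 over all windows of the list. Averaged over the windows of the list, methylation was 54.1% ± 0.254 in saline and 52.3% ± 0.325 in exposed mice, while the mean of all windows was higher in exposed mice. Without Saline replicate 1 the list had 93 hypo methylated windows.

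Ptprc encodes CD45, the tyrosine phosphatase carried by all nucleated blood cells. Its promoter window (chr1:138174001-138175000) had 72.8%, 68.9% and 79.5% methylation in saline mice. It had 53.6%, 46.2% and 52.0% in OVA mice and 51.5%, 51.1%, 56.5% and 46.9% in Herb mice. The difference was -22.6 points (adjusted p = 8.44e-04), and no exposed mouse reached the saline values. All 5 promoter windows of the gene were hypo methylated. In the promoter of Spi1, which encodes PU.1, the window chr2:91097001-91098000 fell from 76.6% ± 5.62 to 56.4% ± 5.78 (adjusted p = 0.00318). Ikzf1, which encodes the lymphoid factor Ikaros, had the most hypo methylated windows of any named gene, 20 of 61, with none hyper methylated.

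The leading Ikzf1 window (chr11:11687501-11688500), in an intron 2075 bp from a start site, had 78.2%, 75.5% and 78.4% in saline mice. The exposed mice lay between 49.0% and 64.6%, with a median of 57.2% (difference -20.3, adjusted p = 8.96e-04). The leading promoter windows of Lcp2, an adaptor of antigen receptor signalling, and Dock2, an activator of Rac in migrating lymphocytes, fell by 20.1 and 18.9 points. Those of Hcls1, a cortactin relative of blood cells, and Itgb2, the common chain of the leukocyte integrins, fell by 18.6 and 14.6. Some genes of the list also held gains. The leading promoter windows of Runx1 and Runx3 rose by 17.3 and 14.1 points (adjusted p = 8.52e-04 and 0.00623). Both genes also had hypo methylated promoter windows, 4 in Runx1 and 2 in Runx3. In Spi1 a window 19300 bp from a start site (chr2:91115501-91116500) rose from 20.1% ± 4.57 to 42.9% ± 6.77 (adjusted p = 0.00258). In Runx3, a factor of T cell differentiation, 17 windows were hyper and 3 hypo methylated, and Runx1, the blood stem cell factor, had 10 hyper and 17 hypo methylated windows. Away from its promoter Dock2 also gained, with 13 hyper and 6 hypo methylated windows in all. Cd37 had 6 and 2, and Vav1 5 and 3.

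The microRNA hairpins of RefSeq were examined after the data were seen. Of 1005 hairpins, 335 lay inside a tested window, usually in a pair of overlapping windows, and 15 (4.48%) had a hyper and 5 (1.49%) a hypo methylated window, beside 3.17% and 2.08% of all single windows. The largest loss was at Mir142, whose microRNA is abundant in blood cells. Mature sequences are printed with the seed (bases 2 to 8) in capitals, to identify the products of the loci described.
mmu-miR-142a-5p: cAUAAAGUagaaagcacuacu
mmu-miR-142a-3p: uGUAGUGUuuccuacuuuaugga
mmu-miR-126a-3p: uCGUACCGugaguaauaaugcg
mmu-miR-21a-5p: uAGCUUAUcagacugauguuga
mmu-miR-10a-5p: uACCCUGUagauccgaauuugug
mmu-miR-10b-5p: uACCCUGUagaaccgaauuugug

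The window at Mir142 (chr11:87756501-87757500) had 69.9%, 73.6% and 65.5% in saline mice. It had 55.2%, 44.8% and 45.7% in OVA mice and 48.6%, 46.6%, 49.7% and 48.0% in Herb mice (difference -21.3, adjusted p = 7.23e-04). It lay in a run of 10 hypo methylated windows (chr11:87753501-87759000), 1541 bp from Tspoap1. The window at Mir126a, which lies in the endothelial gene Egfl7 and whose microRNA acts in vessels, went the other way. It had 39.1%, 39.7% and 45.2% in saline mice, and 50% to 65.9% in exposed mice (difference 16.8, adjusted p = 0.0123). The call was lost without Saline replicate 1 (adjusted p = 0.0582) and without Saline replicate 2 (adjusted p = 0.0647). At Mir21a, a microRNA raised in many inflamed tissues, methylation fell from 56.1% ± 0.907 to 44.0% ± 4.48 (adjusted p = 0.0150), also a call lost without Saline replicate 1 (adjusted p = 0.0520) or 2 (adjusted p = 0.0733). Mir10a and Mir10b, which share a seed and lie in the HoxB and HoxD clusters, rose by 11.5 and 12.3 points.

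The Th2 genes had calls in both directions. Of 482 windows near the 25 Th2 cytokine and regulator genes with data, 17 (3.53%) were hyper and 10 (2.07%) hypo methylated, close to the shares of all windows, and none of 102 promoter windows was called. Il4, the cytokine that drives IgE switching, had 3 hypo methylated windows, all 3′ of the gene. The neighbouring Il13 had none, nor had Il5, for which only 2 windows were tested. Of the other neighbours, Kif3a had 2 hypo methylated windows, which may count for Il4 too, and Rad50 had 1. The window with the largest difference (chr11:53609501-53610500) lay 7338 bp from the start site, between Il4 and Kif3a, and has 13 CpGs. The 160 bases of it with the most CpGs hold 5, in capitals, and are shown because it is the called stretch nearest to a signature cytokine of the disease.
3′ of Il4 (chr11:53610162-53610321, +): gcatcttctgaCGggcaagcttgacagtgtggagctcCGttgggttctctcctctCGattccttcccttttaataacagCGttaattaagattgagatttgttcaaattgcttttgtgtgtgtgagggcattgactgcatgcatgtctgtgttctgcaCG

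Methylation of the window 3′ of Il4 was 74.8%, 73.0% and 69.2% in saline mice. It was 61.8%, 44.8% and 50.5% in OVA mice and 55.2%, 51.7%, 57.2% and 51.2% in Herb mice (difference -19.1, adjusted p = 0.00187). All exposed mice were below all saline mice. Stat6, which transmits the IL-4 signal, was hyper methylated in the intron window whose sequence is printed above. There saline mice had 24.9%, 28.2% and 20.1%, and exposed mice 35.7% to 54.2% with a median of 47.2% (difference 22.5, adjusted p = 0.00183). Rora, a nuclear receptor needed for type 2 innate lymphoid cells, had 8 hyper and no hypo methylated windows of 138. Its called window with the largest difference had 21.9% ± 3.04 in saline and 36.4% ± 4.28 in exposed mice (adjusted p = 0.0285). That call was lost without Saline replicate 1 (adjusted p = 0.111), Saline replicate 2 (0.0993), Herb replicate 2 (0.0534) or Herb replicate 3 (0.0511). The window in Gata3, the master Th2 factor, differed by 13.2 points with overlap between groups (47.6% ± 5.66 and 60.8% ± 6.87, adjusted p = 0.0481), and the call was lost without any 1 of the saline mice (adjusted p = 0.0532 to 0.181) and without OVA replicate 3 or Herb replicate 2, 3 or 4 (0.0594 to 0.0804). Ccr4, a chemokine receptor of Th2 cells, fell from 72.6% ± 0.599 to 57.7% ± 4.33 in a window 4456 bp from its start site (adjusted p = 0.00376).

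**Figure D2:**
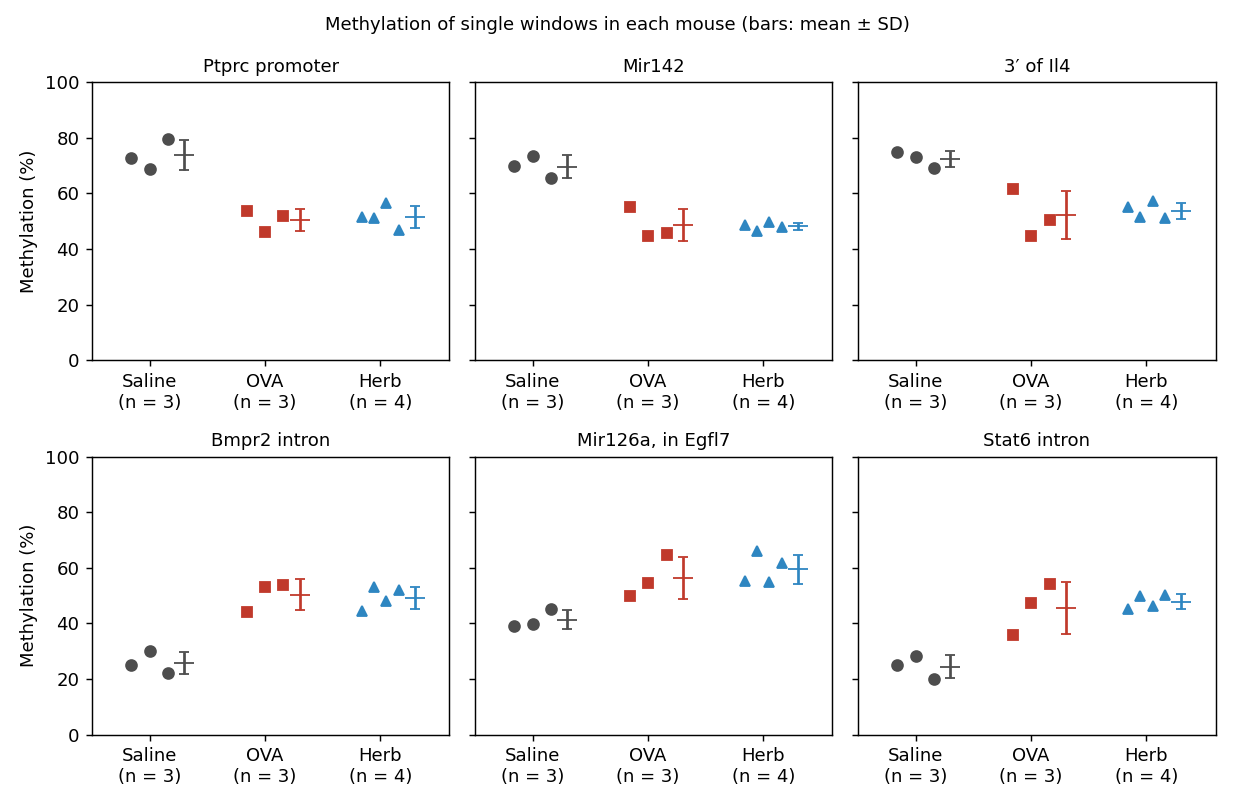
Methylation (%, y axis) in each mouse, by group (x axis), of 6 windows: the Ptprc promoter, Mir142, 3′ of Il4, and introns of Bmpr2 and Stat6 and the window at Mir126a in Egfl7. Points are mice and bars give the mean ± SD of 3 saline, 3 OVA and 4 Herb mice. The windows of the upper row are lower and those of the lower row higher in all 7 exposed mice than in all 3 saline mice.

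Myeloid and chemokine lists had larger shares of hypo than of hyper methylated windows. In the macrophage and neutrophil list, 17 of 224 windows (7.59%) were hypo and 5 (2.23%) hyper methylated. Itgax, which encodes CD11c of dendritic cells and lung macrophages, fell from 60.1% ± 3.77 to 40.6% ± 5.08 (adjusted p = 0.00399). In the chemokine list, 17 of 292 windows (5.82%) were hypo and 2 (0.685%) hyper methylated. Of the hypo methylated windows 7 lay at Ccl9, a macrophage chemokine. The Ccl9 window with the largest difference fell from 72.6% ± 3.64 to 51.3% ± 4.69 (adjusted p = 0.00168). Only 8 of 32 genes of the chemokine list had a call.

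In the eosinophil and mast cell list, 15 of 277 windows (5.42%) were hyper and 8 (2.89%) hypo methylated, and no promoter window of 63 was called. The gains were mostly at Gata2, a factor of blood progenitors and mast cells, with 9 windows. Kit had 4 gains and Siglecf 2. The losses lay at Epx, Prg2, Hdc and Kit, with 2 windows each, so that Kit had both directions. Epx, the eosinophil peroxidase, had 86.8%, 86.1% and 86.3% in saline mice. Exposed mice had 69.2% to 78.1% (difference -13.4, adjusted p = 9.47e-04). Hdc, which makes histamine, fell from 72.8% ± 1.05 to 54.0% ± 3.25 (adjusted p = 6.04e-04). The window at Prg2, the eosinophil major basic protein, had 68.1% ± 3.45 and 50.6% ± 7.43 (adjusted p = 0.0310), but the call was lost without any 1 of the saline mice (adjusted p = 0.0572 to 0.122) and without OVA replicate 2 or 3 or Herb replicate 2 (0.0525 to 0.0550). The Gata2 window with the largest difference rose from 20.3% ± 3.24 to 39.4% ± 4.49 (adjusted p = 0.00106).

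T and B cell lists had more hypo than hyper methylated windows, unlike all windows, of which 2.08% were hypo and 3.17% hyper methylated. Of 523 T cell windows, 19 (3.63%) were hypo and 14 (2.68%) hyper methylated, and 15 of 29 genes, among them Cd3e, Cd3d and Cd3g of the T cell receptor complex, had no call. Prkcq, a kinase of T cell receptor signalling, had the most hypo methylated windows of the list, 5. Of 492 B cell and plasma cell windows, 10 (2.03%) were hypo and 5 (1.02%) hyper methylated. The B cell list thus had few gains, and its share of losses was close to that of all windows. In Bank1, a B cell scaffold, an intron window fell from 78.9% ± 2.06 to 60.7% ± 6.10 (adjusted p = 0.00288). Of 160 windows of the cytotoxic and interferon gamma list, 8 (5%) were hyper and 2 (1.25%) hypo methylated, and Ifng, the Th1 cytokine, had no call. Klrg1, a receptor of effector lymphocytes, rose from 15.1% ± 3.90 to 34.1% ± 5.25 (adjusted p = 0.00252).

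Among endothelial genes gains outnumbered losses. Of the 714 windows near the 35 endothelial genes, 64 (8.96%) were hyper and 5 (0.700%) hypo methylated. By gene, 22 had only hyper methylated windows, 1 only hypo methylated ones, 1 both and 11 neither. Without Saline replicate 2 the number of hyper methylated windows was 27. The median difference of the list was 1.74 points, against 0.767 over all windows. Averaged over the list, methylation was 41.9% ± 0.862 in saline and 45.1% ± 0.627 in exposed mice. The 6 marker genes of other organs, such as Alb and Gfap, had 57.0% ± 0.571 and 59.8% ± 0.927 over their 91 windows, so a higher mean was not particular to endothelial genes. The angiopoietin receptor gene Tek had 7 hyper methylated windows of 14, and Eng, a TGF-beta co-receptor of vessels, 9 of 32.

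Bmpr2 encodes a bone morphogenetic protein receptor whose loss causes pulmonary arterial hypertension. Its intron window (chr1:59772001-59773000) had 25.1%, 30% and 22.2% in saline mice. It had 44.1%, 53.2% and 53.9% in OVA mice and 44.3%, 53.0%, 47.9% and 51.9% in Herb mice (difference 24.0, adjusted p = 0.00139). The values do not overlap, although the window holds only 2 CpGs. The gene with only hypo methylated windows was Erg, an endothelial ETS factor, with 4 windows. Its window with the largest difference had 73.7% ± 1.79 in saline and 58.8% ± 3.32 in exposed mice (adjusted p = 0.00125). In promoters of the list, 6 of 134 windows (4.48%) were hyper and none hypo methylated.

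Mesenchymal and alveolar type 1 lists also had more hyper than hypo methylated windows. Of 776 windows of mesenchymal, smooth muscle and matrix genes, 44 (5.67%) were hyper and 9 (1.16%) hypo methylated, and 18 of 40 genes had only gains. Col4a1 and Col4a2, a divergent pair that encodes basement membrane collagen chains, had 10 and 9 hyper methylated windows, some of which may count for both genes. The Col4a2 window with the largest difference rose from 16.3% ± 7.02 to 36.5% ± 7.06 (adjusted p = 0.00663). A window downstream of Gli1, a transcription factor of hedgehog signalling, rose from 31.3% ± 4.42 to 51.5% ± 4.11 (adjusted p = 0.00110). Tgfb1, the profibrotic cytokine also made by leukocytes, had 5 hypo methylated windows and no gain. Its window with the largest difference had 87.3% ± 0.580 in saline and 71.3% ± 4.36 in exposed mice (adjusted p = 9.31e-04).

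Of 448 alveolar type 1 cell windows, 23 (5.13%) were hyper and 9 (2.01%) hypo methylated. In a window 1468 bp from a start site of Emp2, a membrane protein of these cells, methylation rose from 41.3% ± 3.84 to 62.4% ± 5.25 (adjusted p = 0.00276). Clic5, an intracellular chloride channel protein, rose from 34.1% ± 4.35 to 55.4% ± 5.48 in an intron (adjusted p = 0.00731). Type 2 and airway lists were closer to the shares of all windows, with 7 hyper (1.91%) and 5 hypo (1.36%) methylated windows of 367, and 13 (2.81%) and 9 (1.95%) of 462. The mucus and goblet cell genes Clca1, Spdef, Agr2 and Itln1 had no call, while Foxa3 of the same list had 1 hypo methylated window. The listed mucin genes Muc5ac and Muc5b had no tested window. Ehf, an epithelial ETS factor, had both directions within 5 kb: one window fell from 78.1% ± 3.03 to 56.4% ± 5.21 (adjusted p = 0.00259) and another rose from 26.1% ± 2.15 to 44.5% ± 5.24 (adjusted p = 0.00597).

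**Figure D3:**
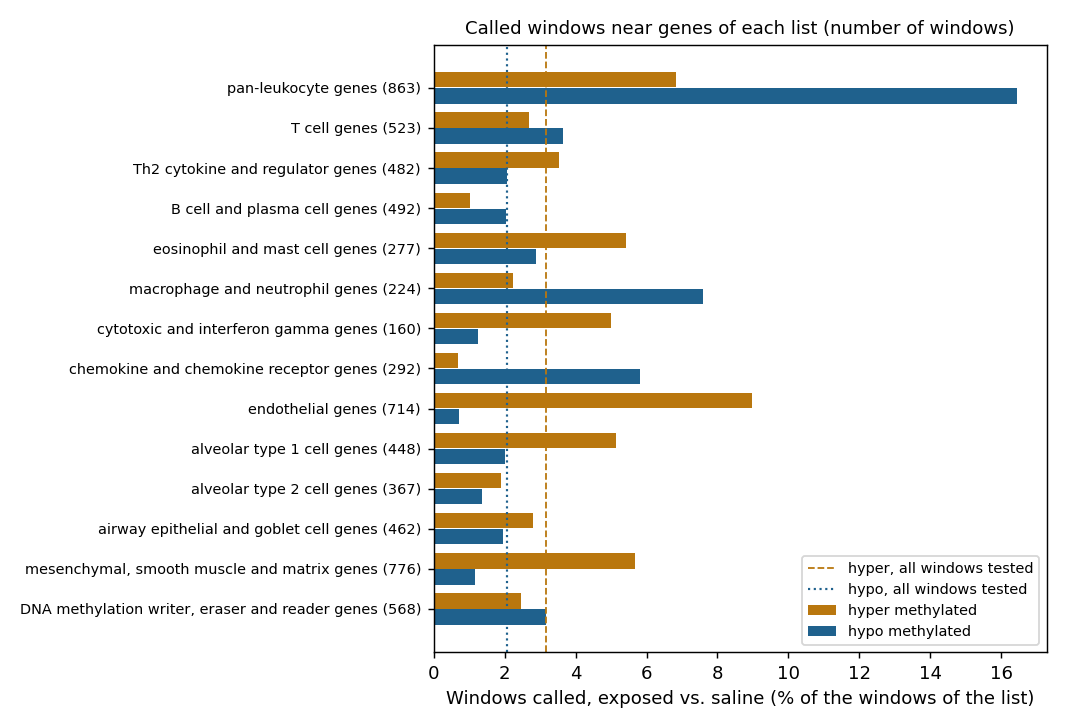
Share of windows called (x axis, % of the windows within 5 kb of the genes of a list) that were hyper and hypo methylated in exposed vs. saline mice, for 14 gene lists (y axis, with the number of windows). Dashed and dotted lines give the shares of all windows tested, 3.17% and 2.08%. Pan-leukocyte genes have the longest bar for loss (16.5%) and endothelial genes for gain (8.96%).

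The genes that write, erase and read methylation had calls in both directions. Of 568 windows, 14 (2.46%) were hyper and 18 (3.17%) hypo methylated, against 3.17% and 2.08% of all windows. The median difference of the list was 0.356 points. Averaged over the list, methylation was 50.1% ± 0.167 in saline and 50.8% ± 0.435 in exposed mice, so the list as a whole did not fall. Dnmt1, Uhrf1 and Tdg had no call. Tet2, a demethylating enzyme mutated in blood cancers, held both directions. An intron window (chr3:133516001-133517000) had 19.7%, 17.6% and 19.2% in saline mice and 35.5% to 44.2% in exposed mice (difference 22.6, adjusted p = 3.87e-04). A window downstream (chr3:133462501-133463500) had 94.0%, 93.8% and 89.1% in saline mice and 74.9% to 77.3% in exposed mice (difference -15.7, adjusted p = 4.72e-04). Dnmt3a, a de novo methyltransferase, had an intron window at 15.4% ± 3.89 in saline and 37.6% ± 10.8 in exposed mice (adjusted p = 0.0231). There OVA replicate 1 had 13.6%, inside the saline range, while the other exposed mice had 37.9% to 45.2%, and the call was lost without any 1 of the saline mice (adjusted p = 0.0516 to 0.0897).

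Called windows of 1 direction that overlap or touch formed 7587 hyper and 4760 hypo methylated regions, of which 947 and 690 had at least 3 windows. The longest lay in the HoxA cluster, whose homeodomain factors set position along the body axis. A run of 31 windows at Hoxa3 and Hoxaas2 (chr6:52165001-52181500, 16500 bp) was hyper methylated. Its mean was 22.3%, 20.9% and 25.5% in saline mice, 34.6%, 39.4% and 41.0% in OVA mice and 35.8%, 41.7%, 37.1% and 42.9% in Herb mice. A second run of 16 windows at Hoxa3, Hoxa5 and Hoxa6 (chr6:52199501-52208500) had a mean of 28.7% ± 1.71 in saline and 44.6% ± 1.89 in exposed mice. Hoxa3 had 57 hyper methylated windows of 85, more than any other named gene. Of the 167 windows of the whole HoxA cluster 64 (38.3%) were hyper and 4 hypo methylated. The other clusters had 15 of 203 (7.39%) in HoxB, none of 130 in HoxC and 5 of 125 (4%) in HoxD. The HoxA windows had a median of 12.9% in saline mice, against 16.7%, 4.57% and 5.69% in HoxB, HoxC and HoxD.

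**Figure D4:**
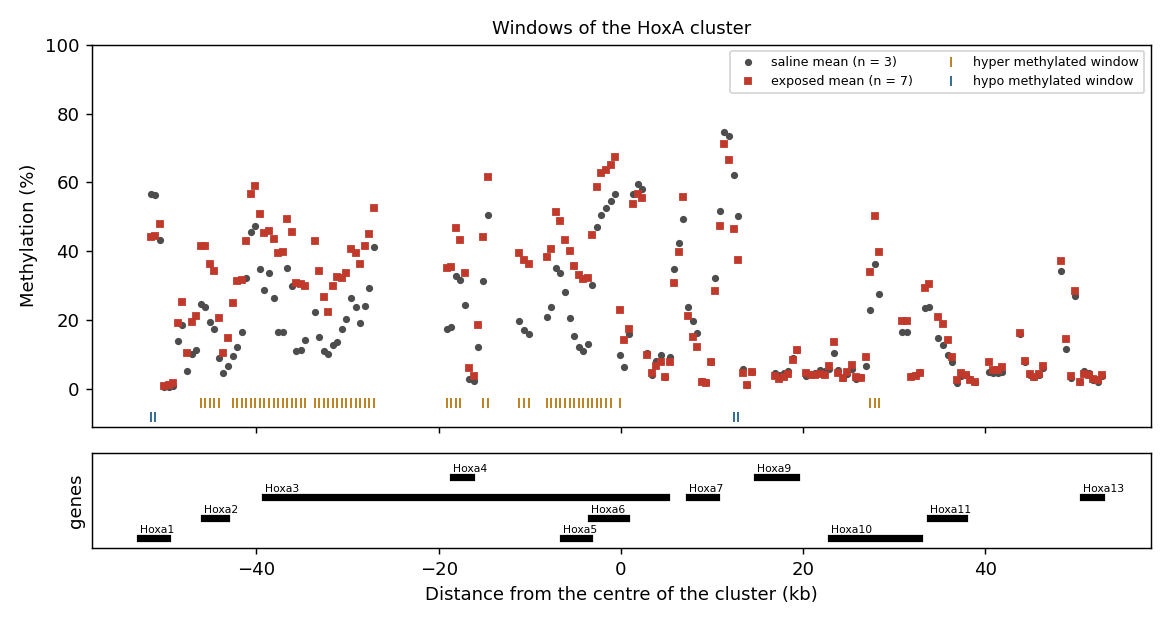
Mean methylation (%, y axis) of the windows of the HoxA cluster in 3 saline and 7 exposed mice against the distance from the cluster's centre (kb, x axis). Ticks under the points mark called windows, and black bars are the Hoxa genes. Exposed means lie above saline means from Hoxa2 to Hoxa6, while most windows from Hoxa9 to Hoxa13 are low in both groups.

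Further long hyper methylated regions lay at Bcl9l, a Wnt pathway co-activator, which rose from 15.4% ± 1.17 to 29.6% ± 2.74 over 9 windows, at Jup, the desmosome protein plakoglobin, which rose from 27.3% ± 2.22 to 42.9% ± 3.37 over 9 windows, and 325 bp from Gbx2, a homeobox gene. Long hypo methylated regions lay at Fmnl1, a leukocyte formin, with 12 windows (64.4% ± 1.41 and 51.7% ± 2.17), at Slc25a12, a mitochondrial carrier, with 8 (73.2% ± 0.319 and 58.2% ± 3.05), and at Anxa11, an annexin, with 7 (66.4% ± 0.419 and 51.5% ± 1.55). These values come from windows called on the same mice and carry no further test. A hyper methylated window lay where the 3′ ends of Fmnl1 and Efcab15 meet, at 19.3% ± 3.30 in saline and 42.7% ± 3.11 in exposed mice (adjusted p = 4.03e-04).

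Among the leading windows of regions of at least 3 windows that could be named, the largest gains were at Aco1 (27.1 points) and Tanc1, a scaffold of synapses (26.9). Tanc1 had 16.7%, 9.65% and 17.8% in saline mice and 34.8% to 52.2% in exposed mice. The largest loss was at the promoter of Cdkl4, a cyclin-dependent kinase-like gene, with 77.4%, 86.6% and 76.7% in saline mice and 40.0% to 61.8% in exposed mice (difference -27.9, adjusted p = 0.00280). Grb2, the adaptor of growth factor and antigen receptor signalling, fell by 25.4 points in an intron. The phosphatase gene Ptpn7, active in blood cells, shares a promoter window with Ptprv that fell from 73.5% ± 1.71 to 49.7% ± 3.20 (adjusted p = 4.43e-04). By number of windows, the developmental factor Casz1 had 22 hyper and 4 hypo methylated windows of 117. Nfia, also a developmental factor, had 21 hyper and 6 hypo methylated windows of 139. The sphingomyelin synthase gene Sgms1 had 19 hypo and 3 hyper methylated windows of 144. The B cell adaptor gene Dapp1 had 15 hypo and 2 hyper methylated windows of 58.

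Called windows were not spread evenly over the genome. Introns had the highest shares, 4.40% hyper and 2.85% hypo methylated, and promoters the lowest, 1.58% and 1.14%. Exons had 3.15% and 1.82%, and intergenic windows 3.03% and 2.04%. Of windows with 20% to 40% methylation on average over all mice 8.76% were hyper and 1.47% hypo methylated, and of those with 40% to 60% 8.48% and 5.40%. Windows near 0% or 100% can hardly differ by the 10 points that a call needs. Windows with over 40 CpGs, as in CpG islands, had 0.644% and 0.0623%. On chromosome X 0.463% and 0.387% of 9291 windows were called. This low share remained among windows with 40% to 60% methylation, where X had 1.05% and 0.498%, and the autosomes 8.67% and 5.52%.

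The motifs held by called windows differed by direction. GAGGAAGT (PU.1) stood in 19.0% of hypo and 5.67% of hyper methylated windows, against 7.39% of all windows tested, all 1000 bp long and read on both strands. TGTGGTTT, the site of the RUNX factors of blood cells, stood in 15.7%, 5.76% and 7.41%. TGANTCA, the site of the inducible AP-1 factors, stood in 32.7% of hypo methylated windows and in 25.6% of both hyper methylated and all windows. TGTTTAC (FOX) had the reverse order, with 20.8% of hyper and 10.3% of hypo methylated windows against 13.1% of all. CATTCCA, the site of the TEAD factors of the Hippo pathway, stood in 19.3%, 13.3% and 15.1%, and the E-box CAGCTG in 50.4%, 41.5% and 42.7%. The T-box motif AGGTGTGA, the STAT motif TTCNNNGAA and the NKX2-1 motif TCAAGTGG lay within 2 points of all windows in both directions. CAGGAAGT, an ETS motif near to GAGGAAGT, was above all windows in both directions (12.4% of hypo and 9.25% of hyper methylated windows, against 8.63%). Among windows with 6 to 20 CpGs the PU.1 shares were 19.0% of hypo and 5.78% of hyper methylated windows against 7.62%, and the FOX shares 10.3% and 21.8% against 13.9%. A motif in a window is a match of letters and not a bound site.

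**Figure D5:**
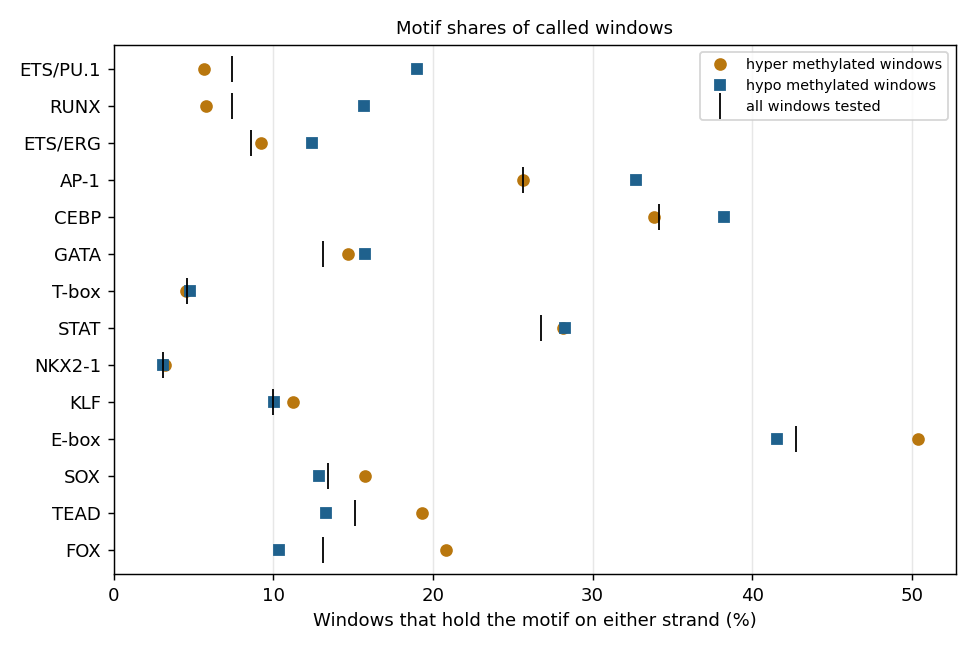
Share of windows that hold a motif on either strand (x axis, %) among hyper methylated, hypo methylated and all tested windows, for 14 motifs (y axis) ordered by the ratio of hypo to hyper methylated windows. Circles and squares are called windows and vertical ticks all windows. PU.1 and RUNX motifs lie to the right of all windows only in hypo methylated windows, and FOX, TEAD and E-box motifs only in hyper methylated ones.

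Lung identity could not be read from promoter methylation. In saline mice, windows within 1 kb of the start sites of the lung genes Sftpc, Cldn18 and Ager had 66.4%, 67.5% and 75.5% methylation. Ager had 1 such window, and the lung markers Sftpb, Sftpd and Scgb1a1 had none tested. Those of genes of other organs had 71.7% for Alb, 57.2% for Myh6, 50.5% for Gfap, 43.3% for Apoa1 and 17.0% for Actn2. The lung genes with such windows were therefore not lower as a group than the others, and the labelled tissue was taken as given. Among the leukocyte lists, means moved in both directions, while the mean of all windows rose by 1.16 points in exposed mice. The means of B cell (0.789 points), Th2 (0.681) and eosinophil and mast cell genes (0.161) rose by less than that. The mean of cytotoxic genes rose by more, and those of pan-leukocyte, macrophage and neutrophil, T cell and chemokine genes fell. The ranges of the list means were 53.9% to 54.4% in saline and 51.8% to 52.8% in exposed mice for pan-leukocyte genes, 55.2% to 55.9% and 54.8% to 56.2% for T cell genes, and 43.0% to 43.5% and 41.1% to 42.6% for macrophage and neutrophil genes. They were 46.3% to 47.0% and 47.5% to 49.2% for cytotoxic genes, 48.6% to 49.4% and 49.0% to 50.1% for B cell genes, 50.4% to 51.0% and 50.8% to 52.1% for Th2 genes, and 53.3% to 55.0% and 53.4% to 55.2% for eosinophil and mast cell genes. Chemokine genes had 45.5% to 46.5% and 44.8% to 46.0%. The part of leukocyte number in the differences was not tested.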

How the data were processed

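DNA of lung tissue from 10 mice was captured (SureSelect MethylSeq), bisulfite treated and sequenced paired-end. Per the labels, the authors used Bismark 0.19.0, cutadapt 1.10 and methylKit 1.0.0, and the deposited table holds, for windows of 1000 bp every 500 bp on mm10, the counts of calls and of methylated and unmethylated calls per mouse, not normalized. No deposited value was altered.

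Percent methylation was 100 × methylated calls/coverage. Windows with at least 20 calls in every mouse were fitted with limma 3.58.1 (R 4.3.3) on M-values with a pseudocount of 1 and a trend on coverage, 7 exposed against 3 saline mice, with Benjamini-Hochberg adjustment over 421759 windows. A call needed an adjusted p under 0.05 and 10 points. In 20000 simulated windows, 8 of 50 changes of 10 points, 31 of 50 of 15 points and 86 of 100 of 25 points were recovered, and 0 unchanged windows were called. The simulated windows were independent, those changed were few and of intermediate methylation, and OVA and Herb mice had the same mean. In the data 10.7% of windows passed the adjusted p, so these rates may not hold there. A share of 50% from 445 calls, the median, has a Wilson 95% interval of 45.3% to 54.5%, and from 20 calls 29.9% to 70.1%. These intervals cover counting error only, and calls without molecular identifiers are not independent molecules.

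Genes (RefSeq, GRCm38.p6) were given windows within 5 kb, and a promoter was within 1 kb of a start site. Sequences came from the same assembly, and none was taken from chromosome 18. In each direction, the leading windows (smallest p) of the 10 regions with the largest difference were named. These were regions of at least 3 windows within 5 kb of a gene not named Gm, LOC or Rik, whose mice did not overlap. The 5 genes with the most called windows in each direction were named too, by their window with the smallest p. Up to 4 genes per list and direction were named by their called window with the largest difference, which need not have the smallest p. Long regions, microRNA loci, leukocyte promoters and printed sequences were chosen after their values were seen. The gene lists, the members and the tests were chosen with earlier results of these data known, partly from an earlier analysis of them. Groups and replicate numbers came from the labels, in which nothing else pairs mice across groups. The labels name the samples as replicates and not as single animals, so p-values measure the spread between these samples. Alternatives covered the coverage minimum, the pseudocount, the scale, centring, the test, window overlap, the replicate block and leaving out each mouse.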

Additional observations from a re-analysis of the deposited data

Results flagged for a closer look

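Of 308 tests of named windows for a mouse far from the others of its group, 9 passed Dixon's 95% limit, where chance gives about 1 in 20. The gap of the outlying mouse is given as a share of the range of its group. Among the 4 Herb mice, Herb replicate 4 was high at Prrc2b (49.3%, gap 0.913) and at Kdm2b, a histone demethylase gene (58.7%, gap 0.834). Herb replicate 2 was high at Egfl7 (79.3%, gap 0.863), and Herb replicate 1 stood apart at Ehf (40.2%, gap 0.841) and Fnbp1, a membrane-bending protein gene (69.1%, gap 0.872). Among the 7 exposed mice, OVA replicate 1 stood apart at Dnmt3a (13.6%, gap 0.768) and at the chromatin remodelling gene Arid1b (66.8%, gap 0.627). Herb replicate 1 stood apart at Ncf1, a subunit of the phagocyte oxidase (16.9%, gap 0.581), and Herb replicate 2 at Krt8, an epithelial keratin (62.4%, gap 0.613).

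In 9 hyper methylated windows (0.0672%) and 1 hypo methylated window (0.0114%), Herb and OVA differed in the 3-group limma fit, against 0.922% of all windows. These windows were called by the fit of 2 groups, which counts a Herb to OVA difference as spread, and the 3-group fit gave 49 and 25 among its own calls. Herb lay further from saline than OVA in each of them. At Cwc22, a splicing factor gene, the means were 2.03% in saline, 5.03% in OVA and 18.4% in Herb mice. At Osbpl8, a lipid transfer protein gene, which held the hypo methylated window, they were 62.1%, 54.3% and 40.4%.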

How the results depend on the processing

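Hyper and hypo methylated windows numbered 13389 and 8758 as reported. They stayed within 1.5 times of this without a coverage minimum, with a minimum of 50, with a pseudocount of 0.5, on the percent scale, in the 3-group fit, on autosomes, and after centring (10814 and 9456). The quasi-binomial F test called 8827 hyper methylated windows and the likelihood ratio test of pooled calls 20745. Without a minimum difference there were 29593 and 15558, with at least 20 points 627 and 485, with an adjusted p under 0.01 6422 and 4796, and in windows that do not overlap 6721 and 4376. Leaving out 1 mouse gave 6731 to 15222 hyper and 5260 to 9539 hypo methylated windows. The difference in mean methylation was 1.65 points with pooled calls (exact p = 0.117) and 1.02 to 1.30 without 1 mouse. Without a saline mouse its exact permutation p was 0.0556, the smallest possible there. Herb and OVA differed in 1626 to 3644 windows without 1 mouse. Pan-leukocyte genes had 93 to 148 hypo and endothelial genes 27 to 68 hyper methylated windows without 1 mouse.

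Within 1 kb of a start site, hyper and hypo methylated windows numbered 3 and 63 for pan-leukocyte, 1 and 5 for T cell, 0 and 0 for Th2, 0 and 3 for B cell, 0 and 0 for eosinophil, 1 and 2 for macrophage, 0 and 0 for cytotoxic, 1 and 4 for chemokine, 6 and 0 for endothelial, 5 and 1 for alveolar type 1, 0 and 1 for alveolar type 2, 2 and 0 for airway, 9 and 0 for mesenchymal, and 0 and 2 for DNA methylation genes.

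With the replicate number as a block, 10222 hyper and 6985 hypo methylated windows were called, and Herb and OVA differed in 2563. The values showed no pairing by number: same-numbered mice of different groups had correlations of -0.0273 to 0.0785 in their deviations. Of 10 mice, 3 correlated best with their own number. With so few mice per group, this cannot exclude a pairing. Of 134 named windows none changed direction in the alternatives run. Their choice as called windows of these same mice, mostly for large differences, left little room for a change of direction. The call was kept in 115 with the block, and in 98, 92 and 110 without Saline replicate 1, 2 and 3. Of 15 windows at microRNAs, printed sequences and leukocyte promoters added after the data were seen, 12 kept the call with the block and without each mouse. The cause of these changes was not tested, and with 3 saline mice the spread of that group is poorly known.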

Other observations

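Some microRNA loci not described above also held called windows. Mir6991 had the largest gain among hairpins with a Mir symbol, from 28.4% ± 2.55 to 46.2% ± 4.04 (limma adjusted p = 0.00112). Mir196a-1, in the HoxB cluster, rose from 29.6% ± 2.99 to 41.3% ± 3.92 (limma adjusted p = 0.0126), a call lost without Saline replicate 1 (0.0527) or 2 (0.0778). Mir149 fell from 38.3% ± 4.11 to 24.6% ± 3.50 (limma adjusted p = 0.00743). These loci were chosen after their values were seen.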
